A study of Mus musculus with 7 samples.

Results

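The blood and lymphatic vessel genes are 41 mouse genes, chosen by symbol: genes made by endothelial cells of all vessels, genes of arterial, venous and lymphatic endothelium, and the ligands that drive vessel growth. All 41 symbols matched 1 Ensembl identifier each among the 46603 counted genes. They were compared between tumors that grew from cells lacking nuclear myosin 1 (NM1), a nuclear isoform of the Myo1c gene, and tumors from the same cells with NM1 put back. KO cells are mouse embryonic fibroblasts from an ATCC line, made NM1-deficient with CRISPR/Cas9. KO+NM1 cells are those KO cells carrying a lentivirus for NM1 with HA and V5 tags, selected with neomycin and tested as single clones. Hosts were female Balb/c nude mice aged 16 weeks, which lack a thymus but keep their own vessels, fat, muscle and macrophages. Tumors were removed within 30 days of injection, after perfusion with saline. The libraries were made from 3 pieces of KO tumor and 4 pieces of KO+NM1 tumor. By the sample descriptions 1 tumor of each condition was cut into 4 pieces, so the spread between pieces, on which every SD and p here rests, may hold no difference between mice. The injection site is the right flank in the descriptions and the mammary pad in the published results.

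Blood vessels are lined by endothelial cells, which form a sheet sealed by junction proteins and are held in identity by transcription factors of the ETS and SOX families. Vessel growth is driven by VEGF ligands acting on receptor tyrosine kinases of endothelial cells, and vessel stability is governed by angiopoietins and the Tie receptors. Lymphatic endothelium uses its own branch of this system, in which Vegfc acts on the receptor encoded by Flt4 and Prox1 holds lymphatic identity. In tumors grown from injected fibroblasts the vessels are built by the host, while ligands can come from injected cells and from host cells alike. Gene counts of these mouse cells in mouse hosts do not separate the 2 sources.

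The promoters of 4 genes are shown because they stand at both ends of the comparison. Of the 25 vessel genes with a promoter entry, Cldn5, a tight junction protein, and Ackr1, a chemokine receptor of venules, had the most negative log2 fold changes (KO minus KO+NM1), and Vegfc and Pdpn were the 2 genes higher in KO. Each window holds the 250 bases before a RefSeq transcript start on GRCm38.p6, read 5′ to 3′ on the strand of the gene. Capitals mark AGGAAG or its reverse complement CTTCCT, a core sequence bound by ETS factors such as Erg.
Cldn5 (chr16:18776597-18776846, plus strand): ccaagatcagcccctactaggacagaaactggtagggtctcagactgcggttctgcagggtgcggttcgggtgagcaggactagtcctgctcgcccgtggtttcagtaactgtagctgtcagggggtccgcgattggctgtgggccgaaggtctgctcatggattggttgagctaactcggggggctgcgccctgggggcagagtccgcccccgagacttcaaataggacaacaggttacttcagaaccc
Ackr1 (chr1:173333504-173333753, minus strand): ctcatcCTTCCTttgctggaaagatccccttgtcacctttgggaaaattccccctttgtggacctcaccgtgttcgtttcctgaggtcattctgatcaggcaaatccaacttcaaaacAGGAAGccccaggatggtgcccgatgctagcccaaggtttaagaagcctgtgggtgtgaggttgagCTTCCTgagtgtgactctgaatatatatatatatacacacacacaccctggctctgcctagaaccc
Vegfc (chr8:54077282-54077531, plus strand): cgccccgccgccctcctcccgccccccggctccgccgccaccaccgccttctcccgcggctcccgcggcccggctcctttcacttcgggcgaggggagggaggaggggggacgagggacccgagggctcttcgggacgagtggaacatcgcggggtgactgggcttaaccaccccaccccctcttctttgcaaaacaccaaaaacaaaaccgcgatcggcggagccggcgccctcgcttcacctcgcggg
Pdpn (chr4:143299565-143299814, minus strand): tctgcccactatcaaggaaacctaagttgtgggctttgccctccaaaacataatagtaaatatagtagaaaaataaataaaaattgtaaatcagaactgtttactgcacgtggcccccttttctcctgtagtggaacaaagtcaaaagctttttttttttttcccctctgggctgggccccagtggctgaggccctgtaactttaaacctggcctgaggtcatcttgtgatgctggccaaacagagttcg
The core occurred 3 times in the window of Ackr1 and 0 times in those of Cldn5, Vegfc and Pdpn. The Ackr1 window lies almost wholly inside the Ackr1 gene as placed by GENCODE M21 (173331886 to 173333750), so it is upstream of the RefSeq start only. The 25 genes had 32 windows in all, and 13 of these windows (40.6%) held the core on either strand, against 29.5% of all 32851 windows of the same length. By gene the core was in 12 of 25: in 11 of the 20 genes called lower in KO, in 0 of the 2 called higher and in 1 of the 3 not called, Sele. The share by gene over all genes was not taken, and a gene with several windows has more chances to hold the core. Genes called lower without it included Cldn5, Vegfa, Dll4 and Kdr. The SOX motif ACAATG (or CATTGT) was in 2 windows (6.25%, against 10.7% of all windows). The hypoxia response core ACGTG (or CACGT) was in 2 windows (6.25%, against 16.6%), those of Vegfa and Pdpn. The GC box GGGCGG (or CCGCCC) was in 16 windows (50%, against 32.7%). No motif contains another. A match describes letters in the window and is not a measured binding site.

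Total counts ran from 24088309 to 28326568 per piece. Levels are in CPM, read counts after TMM scaling per 1000000 counts of the library. A limit of 3 counts, set as the upper end of what a count of 0 leaves likely, stood at 0.0991 to 0.148 CPM. The limit covers counting error only. Myo1c as a whole, with NM1 and its other isoforms together, was at 313, 289 and 306 CPM in the KO pieces and at 438, 408, 406 and 382 CPM in the KO+NM1 pieces (log2 fold change -0.43, SE 0.13, edgeR adjusted p = 0.031). KO+NM1 piece 01 stood apart from the other pieces of its group: its log2 CPM correlated at 0.856 to 0.861 with theirs, against 0.977 to 0.986 among those 3, across genes, which are not independent replicates. Mitochondrially encoded genes made up 1.81% to 2.14% of all counts in KO and 5.11% to 18.5% in KO+NM1. Markers of other tissues also differed between the groups. All 6 white adipocyte markers were lower in KO, with sums of 21.8 to 95.1 CPM against 2782 to 20251 CPM, and all 6 skeletal muscle markers were higher, with 2210 to 19238 CPM against 6.42 to 24.8 CPM. Mammary epithelial markers summed to 3.50 to 65.7 CPM in KO and 269 to 1191 CPM in KO+NM1 (3 of 5 tested lower, Wap at 0 in the KO pieces), and erythroid markers to 17.8 to 28.0 and 201 to 764 CPM (3 of 3 tested lower). Brown adipocyte markers summed to 0.396 to 10.7 CPM in KO and 249 to 2712 CPM in KO+NM1 (2 of 3 lower), and mesothelial markers to 93.03 to 107 and 0.148 to 2.01 CPM (1 tested, Msln, higher). The mesothelial sum in KO was nearly all Msln. Upk3b held 1, 0 and 0 counts and Wt1 1, 1 and 13 counts in the KO pieces. Keratinocyte markers, at 11.9 to 1248 and 71.6 to 509 CPM, overlapped and none of 5 tested was called. Macrophage markers summed to 817 to 917 CPM in KO and 274 to 485 CPM in KO+NM1 (4 of 6 higher). The part of these tissues and of the mitochondrial share in the vessel gene differences was not tested. The 8 endothelial markers, all of them vessel genes, were detected in all 7 pieces.

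Most vessel genes were lower in the KO pieces. A gene was called changed at an adjusted p under 0.05 by edgeR's quasi-likelihood test over the 16887 genes tested and a difference of at least 2-fold. All 41 vessel genes passed the filter on low counts, and 35 of them (85.4%) were lower in KO, against 20.3% of all genes tested. Vegfc and Pdpn were higher, 2 of 41 (4.88%) against 17.1% of all genes tested. Flt4, Sele, Lyve1 and Prox1 were not called. By the adjusted p alone the counts were also 35 lower and 2 higher, where 24.5% and 25.7% of all genes were lower and higher. The KO pieces all lay below the KO+NM1 pieces for 33 vessel genes and all above them for 2, and the groups overlapped for 6. Among all genes tested these shares were 26.4% below and 30.5% above. The median log2 fold change, KO minus KO+NM1, was -2.49 over the 41 genes, from -3.47 for Cldn5 to 2.00 for Pdpn, while the median of all genes was -0.0017. The 41 genes summed to 789 to 854 CPM in the KO pieces and to 2860 to 4356 CPM in the KO+NM1 pieces. In bulk tissue fewer endothelial cells and less RNA of these genes per cell cannot be told apart.

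**Figure D1:**
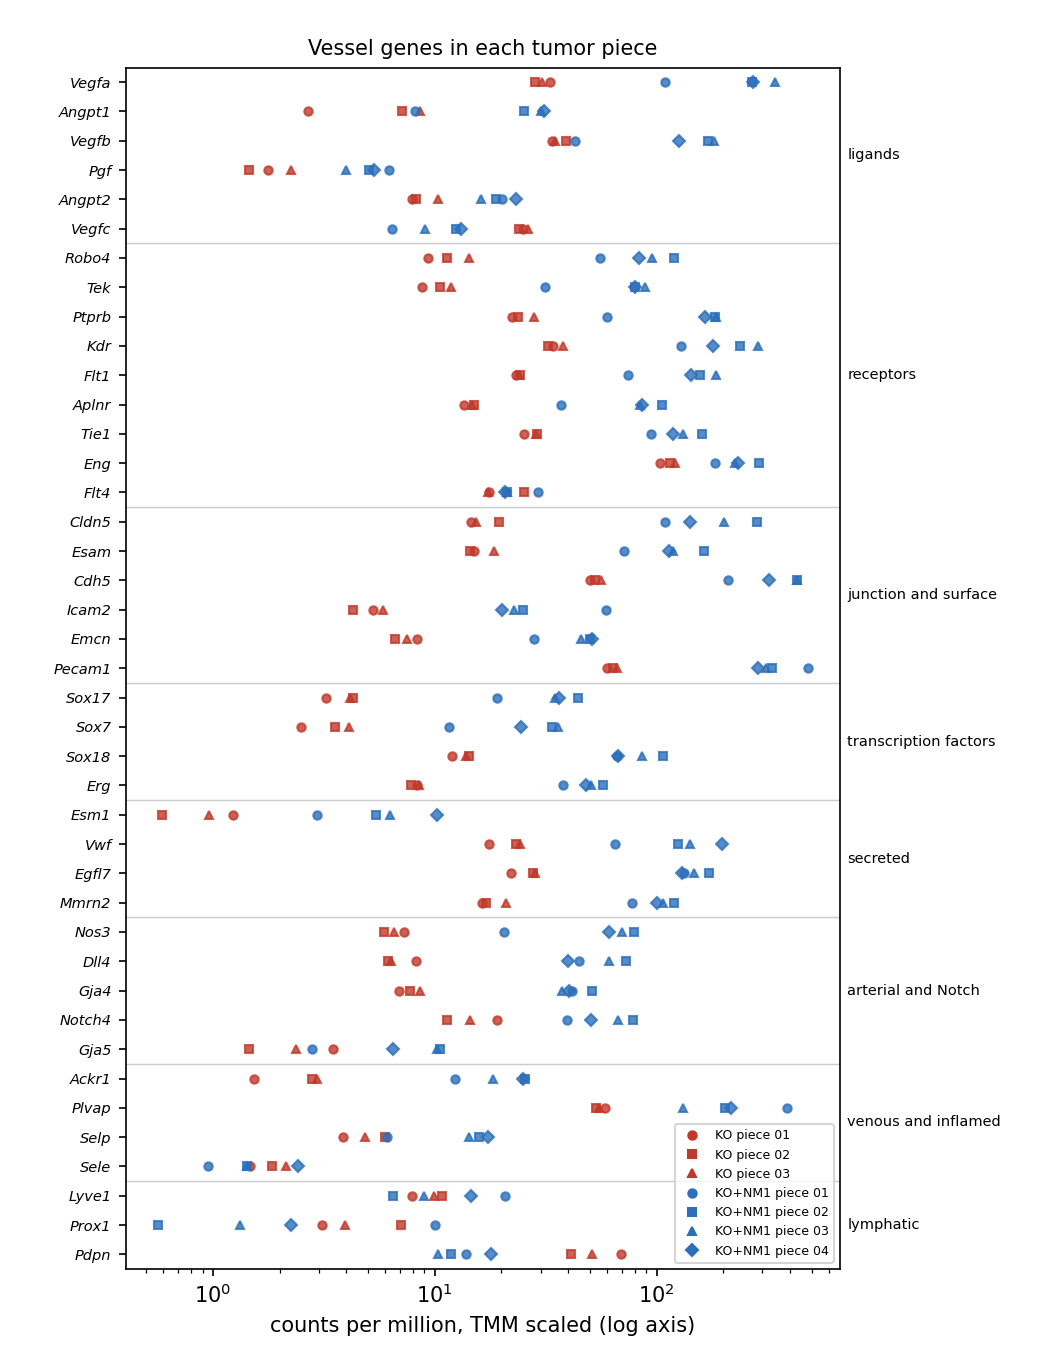
Level of each vessel gene (rows, grouped by role) in every tumor piece, in TMM-scaled CPM on a log axis, with KO pieces in red and KO+NM1 pieces in blue and 1 symbol shape per piece number. For 33 genes all red points lie left of all blue points, and for Vegfc and Pdpn they lie right of them.

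**Figure D2:**
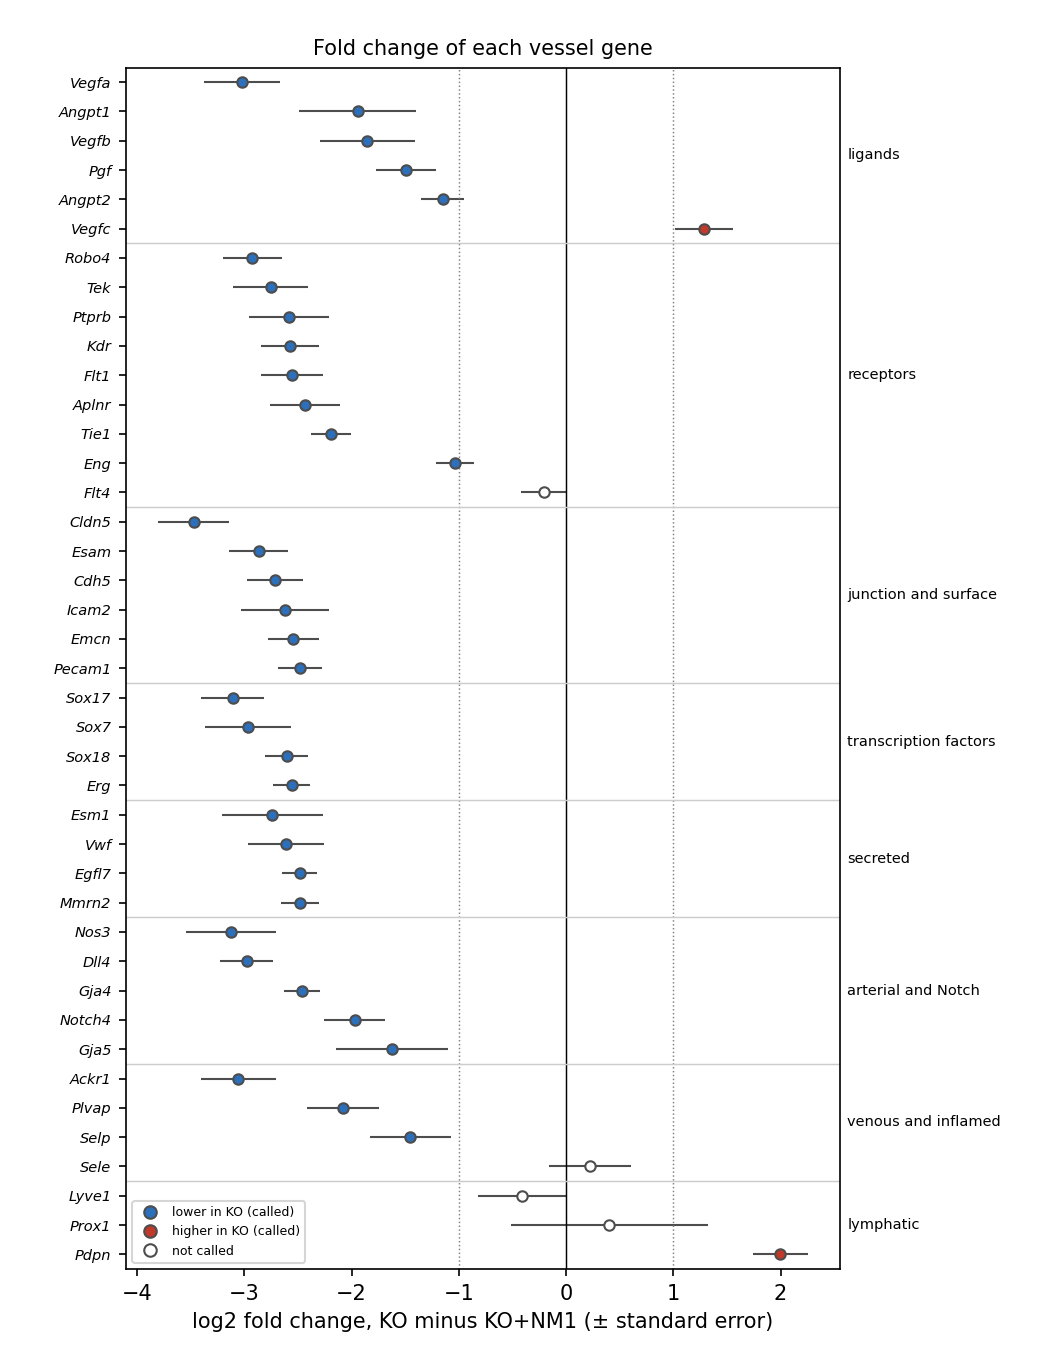
Log2 fold change of each vessel gene, KO minus KO+NM1, as points with bars of 1 standard error from edgeR, and dotted lines at a 2-fold change in either direction. Blue points are the 35 genes called lower, red points the 2 called higher and white points the 4 not called.

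Of the 6 ligands 5 were lower in KO and Vegfc was higher. Vegfa, the main ligand of blood vessel growth, encoded on chromosome 17 from 46016993 to 46032369 of GRCm38, had 33.1, 28.2 and 30.4 CPM in KO pieces 01 to 03 and 109, 268, 343 and 272 CPM in KO+NM1 pieces 01 to 04. The KO pieces were tightly grouped below all KO+NM1 pieces, and KO+NM1 piece 01 lay between the 2 sets. Vegfa was 8.11-fold lower in KO (log2 fold change -3.02, SE 0.35, edgeR adjusted p = 0.0013). Vegfc, the ligand of lymphatic growth, on chromosome 8 from 54077606 to 54187096, ran the other way, with 25.0, 24.0 and 26.3 CPM in KO and 6.46, 12.5, 9.09 and 13.2 CPM in KO+NM1. The groups did not overlap, and Vegfc was 2.43-fold higher in KO (log2 fold change 1.28, SE 0.27, edgeR adjusted p = 0.00709). Without KO+NM1 piece 01, its lowest piece, the log2 fold change was 0.99 with an edgeR adjusted p of 0.0014, just under the 2-fold limit.

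Pgf, placenta growth factor, which binds the receptor encoded by Flt1, had 1.77, 1.46 and 2.25 CPM in KO and 6.20, 5.04, 4.00 and 5.30 CPM in KO+NM1. Angpt2, which endothelial cells release when vessels are remodeled, had 7.90, 8.24 and 10.3 CPM in KO and 20.0, 19, 16.1 and 23.2 CPM in KO+NM1. Neither overlapped between the groups: Pgf was 2.81-fold lower in KO (log2 fold change -1.49, SE 0.28, edgeR adjusted p = 0.00533) and Angpt2 2.22-fold lower (log2 fold change -1.15, SE 0.20, edgeR adjusted p = 0.00384). With libraries scaled by size alone, the log2 fold change of Angpt2 was -0.98 (edgeR adjusted p = 0.0206), under the 2-fold limit. Angpt1, the ligand that activates the receptor Tek, was lower on average (6.13 ± 3.05 CPM in the KO pieces and 23.6 ± 10.6 CPM in the KO+NM1 pieces, mean ± SD with n = 3 and n = 4 here and below; log2 fold change -1.94, SE 0.55, edgeR adjusted p = 0.0279), but KO piece 03, at 8.55 CPM, lay above KO+NM1 piece 01, at 8.13 CPM. The call of Angpt1 was lost without any of KO pieces 01 and 02 and KO+NM1 pieces 02, 03 and 04, at edgeR adjusted p of 0.0595 to 0.0656. Vegfb, another ligand of Flt1, was lower without overlap (35.9 ± 2.82 CPM in the KO pieces and 129.9 ± 62.6 CPM in the KO+NM1 pieces; log2 fold change -1.85, SE 0.44, edgeR adjusted p = 0.015), and its edgeR adjusted p was 0.0519 without KO piece 01.

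Set against each other per kilobase of exon, Vegfc and Vegfa stood in opposite order in the groups. The ratio of Vegfc to Vegfa was 1.32 to 1.51 in the KO pieces and 0.0463 to 0.103 in the KO+NM1 pieces. That of Angpt2 to Angpt1 was 1.63 to 4.13 in KO and 0.756 to 3.47 in KO+NM1, with overlap. Adipocytes and muscle fibers, whose markers differed between the groups as given above, also make Vegfa and Vegfb, and their part in these levels was not tested.

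Of the 9 receptors and surface phosphatases 8 were lower in KO, with a median log2 fold change of -2.55. Kdr, the main VEGF signaling receptor of blood endothelium, had 34.1, 32.3 and 38.0 CPM in KO and 129, 238, 285 and 179 CPM in KO+NM1. Tie1, a partner of Tek in angiopoietin signaling, had 25.4, 28.9 and 28.5 CPM in KO and 94.8, 159.6, 132 and 119 CPM in KO+NM1. Robo4, an endothelial guidance receptor, had 9.37, 11.4 and 14.2 CPM in KO and 55.4, 119.9, 95.5 and 83.6 CPM in KO+NM1. For these 3 receptors each KO piece lay below the lowest KO+NM1 piece, which was piece 01 each time. The fold differences were 5.97 for Kdr (log2 fold change -2.58, SE 0.27, edgeR adjusted p = 0.000869), 4.58 for Tie1 (log2 fold change -2.19, SE 0.19, edgeR adjusted p = 0.000495) and 7.60 for Robo4 (log2 fold change -2.93, SE 0.28, edgeR adjusted p = 0.00068). Flt1, a VEGF receptor that also serves as a decoy, Tek, the angiopoietin receptor, Ptprb, the phosphatase that restrains it, and Aplnr, the apelin receptor, were lower with no overlap of the groups, at log2 fold changes of -2.55, -2.75, -2.59 and -2.43.

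The remaining receptors moved least. Eng, the TGF-beta co-receptor endoglin, was at 113 ± 8.53 CPM in the KO pieces and 232 ± 43.3 CPM in the KO+NM1 pieces, 2.05-fold lower in KO (log2 fold change -1.04, SE 0.18, edgeR adjusted p = 0.00348), and its log2 fold change was under the 2-fold limit without KO+NM1 piece 02 (-0.93) and with libraries scaled by size alone (-0.84). Flt4, the receptor of Vegfc, had 17.5, 25.2 and 17.5 CPM in KO and 29.3, 21.2, 21.3 and 20.7 CPM in KO+NM1. These values overlapped, and Flt4 was not called (log2 fold change -0.21, SE 0.22, edgeR adjusted p = 0.463). Per kilobase of exon, the ratio of Flt4 to Kdr was 0.505 to 0.854 in KO and 0.0820 to 0.249 in KO+NM1, without overlap.

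All 6 junction and surface genes were lower in KO without overlap, with a median log2 fold change of -2.67. Cdh5, VE-cadherin of the endothelial adherens junction, had 50, 52.7 and 56.3 CPM in KO and 211, 428, 429 and 322 CPM in KO+NM1. Pecam1, the adhesion molecule CD31, had 59.6, 63.3 and 66.6 CPM in KO and 479, 331, 311 and 287 CPM in KO+NM1. Emcn, the sialomucin endomucin of veins and capillaries, had 8.37, 6.60 and 7.53 CPM in KO and 28.0, 50.1, 45.9 and 51.3 CPM in KO+NM1. In KO+NM1 piece 01 Pecam1 was at its highest level while Cdh5 and Emcn were at their lowest of the 4 pieces. The log2 fold change, SE and edgeR adjusted p were -2.71, 0.26 and 0.000685 for Cdh5, -2.48, 0.20 and 0.000446 for Pecam1 and -2.55, 0.24 and 0.000613 for Emcn. Cldn5, the tight junction claudin of endothelium, had the most negative log2 fold change of the 41 genes (16.5 ± 2.68 CPM in the KO pieces and 183 ± 76.2 CPM in the KO+NM1 pieces; 11.1-fold lower; log2 fold change -3.47, SE 0.33, edgeR adjusted p = 0.000737). Esam, an adhesion molecule of endothelial tight junctions, and Icam2, an integrin ligand, had log2 fold changes of -2.87 and -2.62.

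The 4 transcription factors were lower in KO, with a median log2 fold change of -2.79. Erg, the ETS factor that maintains endothelial identity, had 8.37, 7.82 and 8.49 CPM in KO and 37.9, 57.5, 50.6 and 48.1 CPM in KO+NM1. Sox18, of the SOX F group that acts in arterial and lymphatic development, had 11.9, 14.3 and 13.9 CPM in KO and 66.1, 107, 85.7 and 67.0 CPM in KO+NM1. Sox17, an arterial member of the same group, had 3.23, 4.28 and 4.16 CPM in KO and 19.2, 44.1, 34.8 and 36.2 CPM in KO+NM1. None overlapped between groups. Erg was 5.90-fold lower (log2 fold change -2.56, SE 0.17, edgeR adjusted p = 0.000255), Sox18 6.09-fold (log2 fold change -2.61, SE 0.20, edgeR adjusted p = 0.000394) and Sox17 8.62-fold (log2 fold change -3.11, SE 0.29, edgeR adjusted p = 0.000685). Sox7, the third member of the group, was also lower (log2 fold change -2.97, SE 0.40, edgeR adjusted p = 0.00205).

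The 4 secreted genes were lower in KO, with a median log2 fold change of -2.55. Egfl7, a matrix protein of endothelium that hosts the microRNA miR-126, had 22.0, 27.6 and 28.4 CPM in KO and 133, 173, 147 and 130.0 CPM in KO+NM1. Mmrn2, an endothelial matrix glycoprotein, had 16.4, 17.0 and 20.9 CPM in KO and 77.7, 119, 107 and 100.4 CPM in KO+NM1. Vwf, von Willebrand factor of endothelial storage granules, had 17.6, 23.1 and 24.1 CPM in KO and 64.6, 125, 141 and 198 CPM in KO+NM1. Each was separate between the groups, and Vwf was lowest in KO+NM1 piece 01 and highest in piece 04. The log2 fold change, SE and edgeR adjusted p were -2.49, 0.16 and 0.000242 for Egfl7, -2.48, 0.18 and 0.000338 for Mmrn2 and -2.61, 0.35 and 0.00186 for Vwf. Esm1, endocan of sprouting tip cells, stood at 0.927 ± 0.322 CPM in the KO pieces and 6.23 ± 3.00 CPM in the KO+NM1 pieces (log2 fold change -2.74, SE 0.47, edgeR adjusted p = 0.00455). Platelets also hold Vwf and Selp. Platelet and megakaryocyte markers summed to 13.2 to 19.2 CPM in KO and 37.2 to 60.4 CPM in KO+NM1, with 2 of 4 tested lower and Gp6 at 0 in every piece, and their part was not tested.

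The 5 arterial and Notch genes were all lower in KO, with a median log2 fold change of -2.46. Dll4, the Notch ligand of arteries and tip cells, had 8.20, 6.19 and 6.34 CPM in KO and 44.5, 72.9, 60.8 and 39.7 CPM in KO+NM1. Gja4, a connexin of arterial gap junctions, had 6.93, 7.75 and 8.55 CPM in KO and 41.5, 51.4, 37.6 and 40.2 CPM in KO+NM1. Nos3, endothelial nitric oxide synthase, had 7.30, 5.91 and 6.54 CPM in KO and 20.5, 78.7, 70.0 and 61.2 CPM in KO+NM1. The KO pieces were below all KO+NM1 pieces in these 3 genes, and piece 01 was the lowest KO+NM1 piece in Nos3 only. Dll4 was 7.88-fold lower (log2 fold change -2.98, SE 0.25, edgeR adjusted p = 0.000493), Gja4 5.51-fold (log2 fold change -2.46, SE 0.17, edgeR adjusted p = 0.000261) and Nos3 8.75-fold (log2 fold change -3.13, SE 0.42, edgeR adjusted p = 0.002). Notch4, the endothelial Notch receptor, was lower without overlap (log2 fold change -1.97, SE 0.28, edgeR adjusted p = 0.00216). Gja5, a second arterial connexin, was lower with overlap (2.45 ± 1.02 CPM in the KO pieces and 7.55 ± 3.67 CPM in the KO+NM1 pieces; log2 fold change -1.62, SE 0.52, edgeR adjusted p = 0.0418), and its edgeR adjusted p was 0.0513 to 0.104 without any of KO pieces 01, 02 and 03 and KO+NM1 pieces 02, 03 and 04.

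Of the 4 venous and inflammation-related genes 3 were lower in KO. Ackr1, the chemokine receptor of venules, had 1.53, 2.82 and 2.94 CPM in KO and 12.3, 25.5, 18.2 and 25.0 CPM in KO+NM1. Plvap, which forms the diaphragms of fenestrated capillaries, had 58.4, 53.4 and 54.8 CPM in KO and 388, 203, 132 and 216 CPM in KO+NM1. Selp, P-selectin of activated endothelium, had 3.87, 5.98 and 4.85 CPM in KO and 6.13, 15.8, 14.3 and 17.4 CPM in KO+NM1. All 3 were separate between the groups, Selp by the gap from 5.98 to 6.13 CPM. Ackr1 was 8.33-fold lower (log2 fold change -3.06, SE 0.35, edgeR adjusted p = 0.00118), Plvap 4.23-fold (log2 fold change -2.08, SE 0.34, edgeR adjusted p = 0.00343) and Selp 2.74-fold (log2 fold change -1.45, SE 0.38, edgeR adjusted p = 0.0199). The edgeR adjusted p of Selp was 0.0510 to 0.0620 when KO piece 01 or 03 or KO+NM1 piece 02 was left out. Sele, E-selectin of inflamed endothelium, was low in both groups (1.82 ± 0.341 CPM in the KO pieces and 1.56 ± 0.621 CPM in the KO+NM1 pieces) and was not called (log2 fold change 0.22, SE 0.38, edgeR adjusted p = 0.655). Its log2 fold change was -0.026 without KO piece 03 and -0.080 without KO+NM1 piece 01 (edgeR adjusted p = 0.972 and 0.834).

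Of the 3 lymphatic genes 1 was higher in KO and none was lower. Pdpn, podoplanin, a surface mucin of lymphatic endothelium that is also made by fibroblasts and some macrophages, lies on chromosome 4 from 143267431 to 143299564. It had 69.1, 41.4 and 51.1 CPM in KO and 13.9, 11.8, 10.3 and 17.9 CPM in KO+NM1, 3.99-fold higher in KO with no overlap (log2 fold change 2.00, SE 0.25, edgeR adjusted p = 0.0012). Lyve1, the hyaluronan receptor of lymphatic vessels, which tissue macrophages also make, had 7.93, 10.8 and 9.94 CPM in KO and 20.8, 6.51, 8.94 and 14.6 CPM in KO+NM1. Prox1 had 3.10, 7.06 and 3.93 CPM in KO and 9.99, 0.570, 1.33 and 2.26 CPM in KO+NM1. In both genes KO+NM1 piece 01 was the highest of all 7 pieces and the KO pieces lay among or above the other KO+NM1 pieces. Lyve1 was not called (log2 fold change -0.41, SE 0.41, edgeR adjusted p = 0.435), nor was Prox1 (log2 fold change 0.40, SE 0.92, edgeR adjusted p = 0.738). Without KO+NM1 piece 01 the log2 fold change of Prox1 was 1.63 (edgeR adjusted p = 0.0294), and without KO piece 02 it was -0.13 (edgeR adjusted p = 0.938).

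The lymphatic endothelial marker list, Prox1, Lyve1, Pdpn, Flt4 and Mmrn1, summed to 89.3 to 107 CPM in KO and 40.8 to 83.2 CPM in KO+NM1, with 1 of 5 higher (Pdpn) and none lower. Fibroblast markers summed to 5287 to 9446 CPM in KO and 1874 to 7952 CPM in KO+NM1, with 3 of 5 lower. These were Dcn (log2 fold change -2.72), Lum (-1.99) and Pdgfra (-1.47). Col1a1 (1.42) and Col1a2 (0.39), which made up most of the sum, were not called, but Col1a1 lay higher in all KO pieces than in all KO+NM1 pieces. Of the 6 macrophage markers 4 were higher in KO, as given above. Cd163 and Timd4 had log2 fold changes of -1.26 and -1.62 and were not called. Timd4 was at 155 CPM in KO+NM1 piece 01 and at 5.04 to 9.25 CPM in pieces 02 to 04. The part of fibroblasts and macrophages in the levels of Pdpn and Lyve1 was not tested.

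Beyond the 41 genes, 104 of 108 other genes of vessels passed the filter, and 52 of them (50%) were lower in KO and 7 (6.73%) higher, against 20.3% and 17.1% of all genes tested, with a median log2 fold change of -1.43. Of 15 genes of the vessel wall, chosen as genes of pericytes and smooth muscle, 12 (80%) were lower and Des higher, with a median log2 fold change of -2.80. The part of other cells in their levels was not tested, among them mammary and fibroblast cells, whose markers are given above. Myh11, the smooth muscle myosin, had 7.63, 12.3 and 9.38 CPM in KO and 123, 215, 226 and 250.3 CPM in KO+NM1 (log2 fold change -4.38, SE 0.28, edgeR adjusted p = 0.000302), and Tagln, the actin-binding protein transgelin, a log2 fold change of -3.58. Des, desmin of pericytes and of muscle fibers, had 115, 1515 and 1010 CPM in KO and 166, 43.3, 45.0 and 31.1 CPM in KO+NM1, with overlap (log2 fold change 3.62, SE 0.89, edgeR adjusted p = 0.0168). It was highest in KO pieces 02 and 03, where the skeletal muscle markers summed to 19238 and 15366 CPM against 2210 CPM in KO piece 01, and the part of muscle was not tested. Per kilobase of exon the ratio of Myh11 to Cdh5 was 0.0844 to 0.129 in KO and 0.278 to 0.430 in KO+NM1. The ratio of Rgs5, a pericyte gene, to Cdh5 was 0.867 to 1.15 and 0.927 to 1.22, with overlap. The 6 pericyte markers summed to 155 to 213 CPM in KO and 418 to 858 CPM in KO+NM1, with 4 lower. Of 25 other endothelial genes 19 (76%) were lower and none higher, with a median of -1.95, among them Rasip1, a regulator of vessel lumen formation (-2.66), and Ramp2, a part of the adrenomedullin receptor (-2.82).

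The signaling lists were mixed, and most of them are short. Among all genes tested 20.3% were lower and 17.1% higher. Of 10 co-receptors and semaphorins 3 were lower and 3 higher (30% each). Nrp2, the co-receptor that binds Vegfc, had 279, 236 and 249.5 CPM in KO and 73.0, 72.4, 83.5 and 73.3 CPM in KO+NM1 (log2 fold change 1.75, SE 0.13, edgeR adjusted p = 0.000261), and per kilobase of exon its ratio to Nrp1 was 1.95 to 2.51 in KO and 0.238 to 0.676 in KO+NM1. Sema3e, a repellent of vessels, was also higher (3.05), as was the plexin receptor Plxna1 (1.09), while Sema3g and Sema3f were lower (-3.39 and -1.53). Of 11 Notch pathway genes 5 (45.5%) were lower, led by the targets Hey1 (-4.20) and Hey2 (-3.61), and 2 (18.2%) were higher, Efnb2, the arterial ephrin (2.02), and Rbpj, the Notch transcription factor (1.36). Of 11 tip cell and basement membrane genes 2 were lower, Adm (-2.23) and Lama4 (-1.62), a share of 18.2% that is no larger than that of all genes. Of 5 angiopoietin-like genes and Tie partners 2 (40%) were lower, Foxo1 (-2.26) and Angptl4 (-4.47), and of 10 inhibitors of vessel growth 4 (40%) were lower, among them Spry1 (-2.07). Hhip, a Hedgehog inhibitor also called lower, held 1, 0 and 0 counts in the KO pieces and 0.802, 0.448, 0.543 and 0.617 CPM in KO+NM1. No inhibitor was called higher, but all KO pieces lay above all KO+NM1 pieces for Thbs2 (1.34, edgeR adjusted p = 0.0769). Of the others not called, Thbs1 (0.80), Col18a1 (0.72) and Vash1 (0.42) were positive and Adamts1 (-0.68) and Cxcl14 (-1.14) negative. Of 10 fibroblast growth factors and other ligands 5 (50%) were lower, among them Cxcl12 (-2.05) and Fgf1 (-4.08). Of 8 other lymphatic genes none was lower and 1 (12.5%) was higher, Nts, a peptide gene with 1.57, 1.39 and 1.49 CPM in KO and 0.547, 0.285, 0.0494 and 0.288 CPM in KO+NM1.

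**Figure D3:**
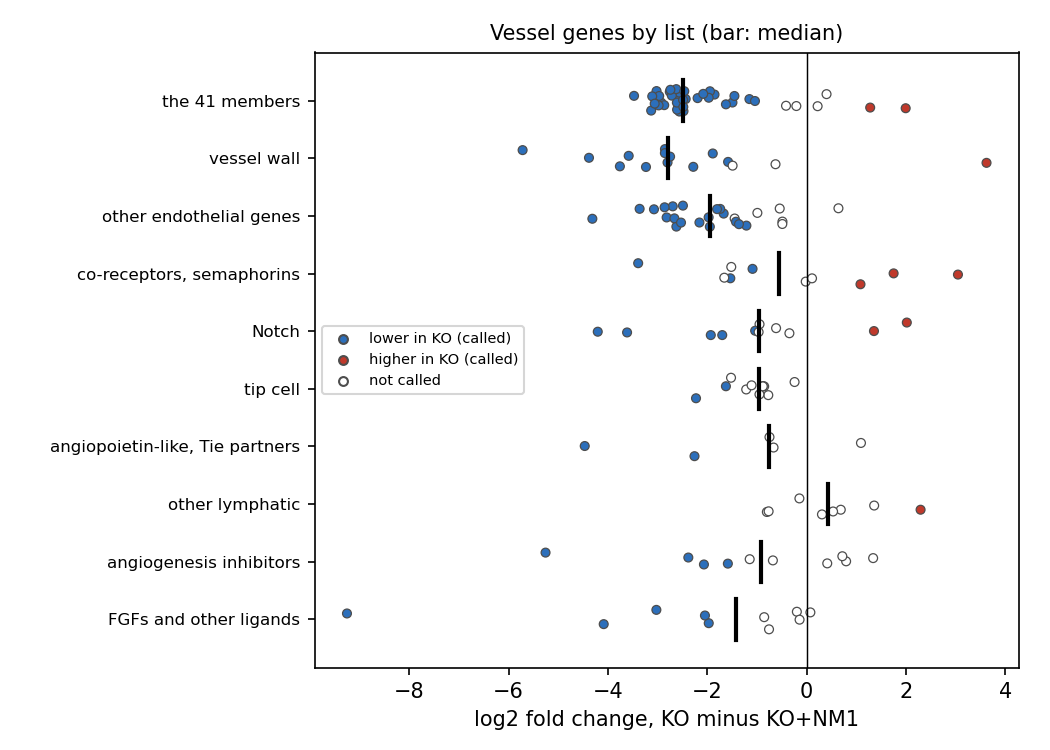
Log2 fold changes, KO minus KO+NM1, of the tested genes of each vessel list (points, with vertical jitter for display) and their median (black bars). Blue points were called lower, red points higher and white points not called. The medians were lowest for the vessel wall list (-2.80) and the 41 genes (-2.49), and above 0 for the other lymphatic list (0.42, or 0.035 where each library had to hold 10 counts of a gene). The point at the far left is Lep, which is also a white adipocyte marker.

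To describe the genes per amount of endothelial RNA, each level was also taken relative to the mean log2 level of 12 pan-endothelial genes, which are themselves among the 41. All 12 were lower in KO, and 80.7% of all genes tested had all KO values above all KO+NM1 values on this scale, and 2.87% had all KO values below. Of the 41 vessel genes 25 overlapped between the groups, 15 lay above in KO and 1, Cldn5, lay below. The 12 are Pecam1, Cdh5, Tie1, Tek, Esam, Emcn, Mmrn2, Ptprb, Robo4, Erg, Icam2 and Cldn5. All of them but Tie1, Mmrn2 and Cldn5 overlapped, which is partly built in because each is compared with the others. Kdr, Flt1, Tek, Cdh5, Pecam1, Erg, Sox18, Dll4, Nos3 and Vwf were among those that overlapped, with differences of group means from -0.33 to 0.19 on the log2 scale. Of these, Tek, Cdh5, Pecam1 and Erg belong to the 12. Other genes that overlapped differed more: Angpt1 (0.70), Plvap (0.65), Sox17 (-0.41) and Ackr1 (-0.40). For several genes KO+NM1 piece 01 alone made the overlap. Pecam1 was at 2.06 to 2.15 in KO, 2.89 in piece 01 and 1.52 to 1.66 in pieces 02 to 04. Nos3 was at -1.45 to -1.08 in KO, -1.89 in piece 01 and -0.70 to -0.67 in pieces 02 to 04. The differences were largest for Pdpn, at 1.36 to 2.15 in KO and -3.42 to -2.45 in KO+NM1, and for Vegfc, at 0.55 to 0.69 and -3.61 to -2.91. Prox1, Sele, Flt4, Lyve1, Eng, Angpt2, Selp, Pgf, Gja5, Vegfb, Notch4, Tie1 and Mmrn2 also lay above, by 3.68 (Prox1) down to 0.17 (Mmrn2). Taken relative to Eng, Kdr, Flt1 and Egfl7 instead, the difference of Tie1 was -0.05, that of Mmrn2 -0.34 and that of Cldn5 -1.26. Eng itself lay above by 1.60 on the first scale. A reference that includes it lowers these differences together, so the change is no separate check of Tie1, Mmrn2 or Cldn5. These are descriptions without a test.

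**Figure D4:**
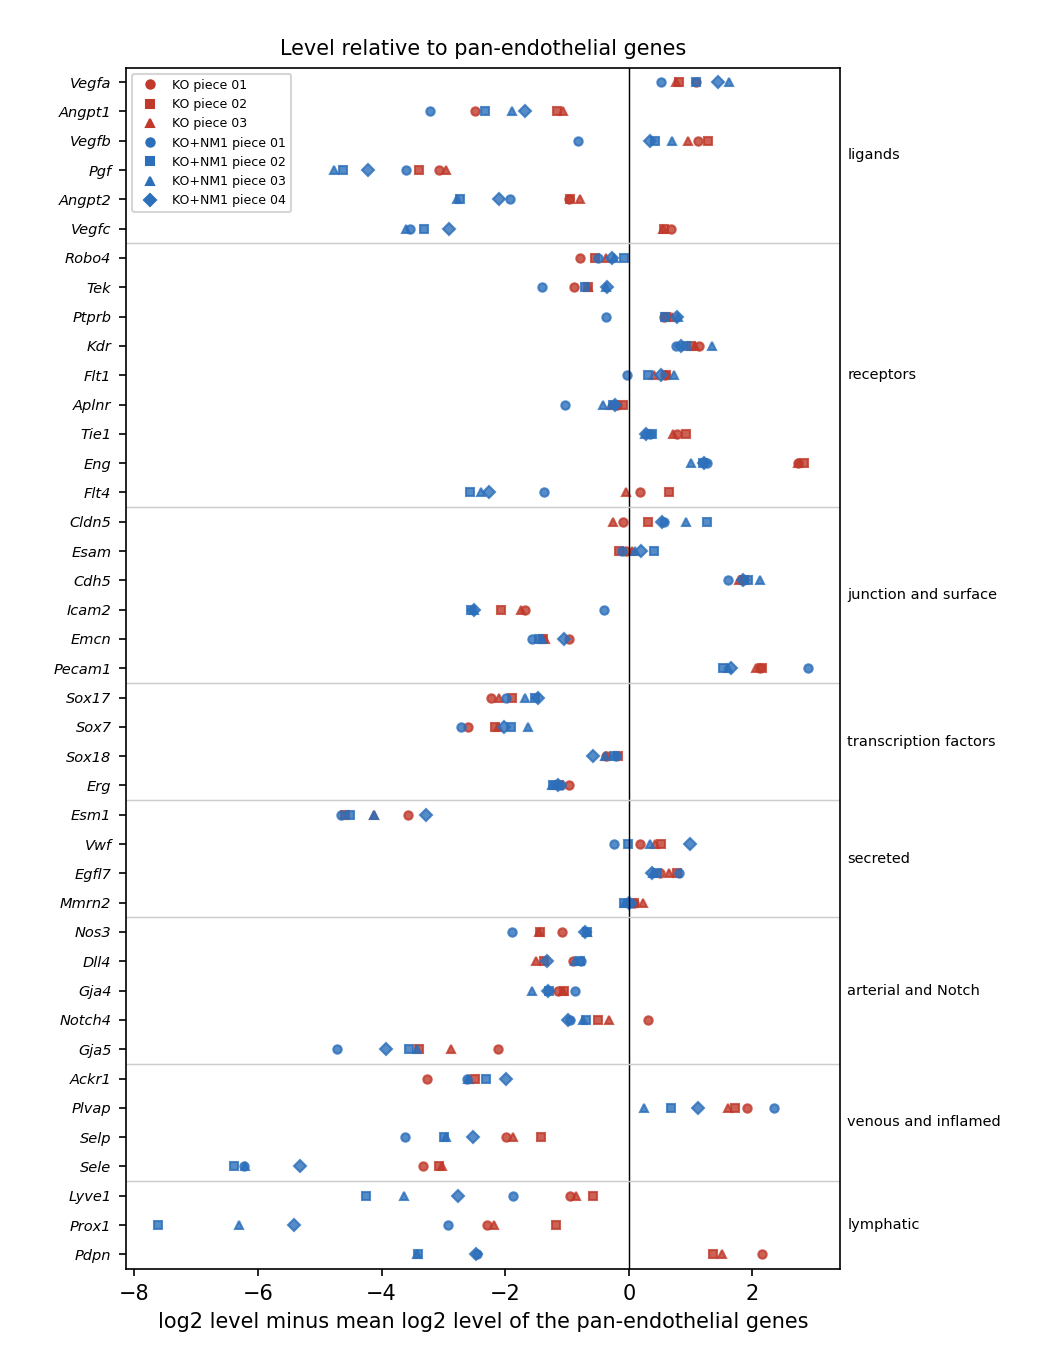
Log2 level of each vessel gene minus the mean log2 level of the 12 pan-endothelial genes in the same piece (a gene of the 12 is compared with the other 11), with KO pieces in red and KO+NM1 pieces in blue. Rows are to be read within a gene. The groups interleave for 25 genes, and red points lie right of all blue points for 15, by the widest gap for Pdpn.

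The order of the genes by level also differed. Per kilobase of exon, Cldn5 (129.5 CPM per kilobase), Plvap (118), Cdh5 (82.6), Vegfb (80.9) and Vegfa (57.9) led in the KO+NM1 pieces. Pdpn (29.6), Eng (27.96), Plvap (27.9), Vegfb (22.4) and Cdh5 (12.6) led in the KO pieces. Pdpn was rank 28 of 41 in KO+NM1 and Vegfc rank 34, against rank 1 and rank 7 in KO. Eng and Plvap, next to each other in KO, did not differ beyond their spread between pieces, and the ranks are given without a test. The lowest genes were Gja5 and Esm1 in KO and Prox1 and Sele in KO+NM1.

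KO+NM1 piece 01, which stood apart across all genes, also did so in the vessel genes. It was the lowest of the 4 pieces in 29 of the 41 vessel genes and the highest in 7: Pgf, Flt4, Pecam1, Icam2, Plvap, Lyve1 and Prox1. The shares over all genes tested were not taken, so these counts cannot be read as particular to vessel genes. Icam2 reached 59.3 CPM in piece 01 against 20.2 to 24.9 CPM in pieces 02 to 04, and Prox1 9.99 CPM against 0.570 to 2.26 CPM. Markers of high endothelial venules, the vessels by which lymphocytes enter lymph nodes, were high in that piece alone: Glycam1 at 2584, Chst4 at 21.2 and Madcam1 at 27.1 CPM, a sum of 2632 CPM against 0.411 to 1.43 CPM in pieces 02 to 04 and 0.0695 to 0.133 CPM in KO. Without piece 01 there were again 35 vessel genes lower and 2 higher, the latter being Pdpn and Prox1 in place of Pdpn and Vegfc, and the median log2 fold change was -2.72.

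Some counts carry a further limit because exons of other genes overlap them and the strand setting of the counting is not stated. The share of exon bases overlapped was 32.3% for Nos3 (by Atg9b and Gm15587 on the other strand), 25.7% for Ackr1 (by Cadm3 on the same strand), 16.8% for Sox17, 14.2% for Angpt1, 14.1% for Selp and 12.8% for Egfl7. Under upper-quartile scaling the median log2 fold change of all genes moved by -0.16, and under scaling by library size alone by 0.17. The direction of the 37 called vessel genes was the same under these scalings and under DESeq2's size factors.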

How the data were processed

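Bulk RNA was sequenced from 3 KO and 4 KO+NM1 tumor pieces with the NEBNext Ultra II kit on a NextSeq instrument. Per the labels, the authors used Trimmomatic 0.36 for trimming, FastQC, HISAT2 2.0.4 for alignment (GRCm38) and SAMtools 0.1.19. They deposited raw HTSeq read counts per Ensembl gene, without normalization. The annotation release and strand option are not given in the sources used here. Symbols and positions came from GENCODE M21 on GRCm38, and promoters from RefSeq.

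Counts were analysed in R 4.3.3 with edgeR 4.0.16: filterByExpr (minimum count 10), TMM, the quasi-likelihood test over all 16887 genes kept, KO minus KO+NM1, and Benjamini-Hochberg adjustment. Calls needed an adjusted p under 0.05 and a 2-fold change, the thresholds in the study's methods, which do not name the test. The SE came from the fitted information and moderated dispersion. CPM used TMM-scaled library sizes, and relative levels used log2 CPM with a prior count of 2. The common biological coefficient of variation was 46.7%. For a count of 0 a limit of 3 counts was set. Total counts were 24088309 to 28326568, and no 2 pieces of a group agreed within sampling noise (chi-square per degree of freedom 35.2 to 687). P-values measure the spread between pieces. The script was tested on simulated counts.

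The 41 genes, the other vessel lists, the marker lists and the tests were chosen with earlier results of these data known. No list was therefore tested as a set, and counts of called genes are given beside the share over all genes. Promoters are shown for the 2 lowest and the 2 highest log2 fold changes among the genes with an entry. Values by piece are given for the 3 genes of each role with the smallest p and for called genes against the majority of their role, and of each other list the 2 called genes with the smallest p in each direction are named. Genes that later statements turn on (Flt4, Icam2, Rgs5) were chosen after their values were seen. Alternatives were DESeq2 1.42.0 (size factors or Wald test), upper-quartile scaling, library size alone, mitochondrially encoded genes left out, filters of at least 1 count or at least 10 counts in every library, limma 3.58.1 voom with quality weights, glmTreat, the adjusted p alone, the piece number as a block, and each library left out. Ccl21a matched more than 1 identifier and was left out. One marker gene was left out of the lists and is not reported here.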

Additional observations from a re-analysis of the deposited data

Results flagged for a closer look

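Among the 4 KO+NM1 pieces, 1 piece stood far from the other 3, by the ratio of its gap to the range of the group against Dixon's critical value of 0.829, in 4 of the 41 vessel genes on the scale of log2 CPM with a prior count of 2. The piece was KO+NM1 piece 01 each time. The ratio was 0.841 for Angpt1, 0.901 for Tek and 0.895 for Ptprb, all at their lowest in that piece, at 8.13, 31.3 and 60.0 CPM. It was 0.916 for Flt4, at its highest there, at 29.3 CPM against 20.7 to 21.3 CPM in the other pieces. On the scale of CPM the ratio was 0.741 for Angpt1, below the critical value, and 0.849, 0.835 and 0.928 for Tek, Ptprb and Flt4, while Icam2, at its highest in piece 01, had 0.879. Chance alone puts about 1 in 20 such groups past the critical value, and the 41 values come from the same 4 libraries. The share of all genes past the critical value was not taken. Groups of 3 were not examined in this way, which leaves out the KO pieces. Without piece 01, Tek, Ptprb and Angpt1 were still called lower in KO, and Flt4 was not called.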

How the results depend on the processing

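The count of vessel genes lower in KO was 28 to 35 under the alternatives, with the lowest value under glmTreat, and the median log2 fold change stayed between -2.72 and -2.32. Under glmTreat the calls of Vegfb, Vegfc, Pgf, Angpt1, Angpt2, Eng, Gja5 and Selp were lost, leaving 1 vessel gene higher, Pdpn, and 1707 and 2074 of all genes were higher and lower. Scaling by library size alone lost Angpt2 (-0.98), Eng (-0.84) and Gja5 (-1.38, edgeR adjusted p = 0.0518). By the adjusted p alone 4345 of all genes were higher. Leaving out each library in turn gave 31 to 35 vessel genes lower and 2 higher, with a median of -2.72 to -2.46, and 2174 to 3603 of all genes higher and 2811 to 4172 lower. Of the 41 genes, 30 kept their direction and their call in all 17 alternatives. Directions turned only in Lyve1, Prox1 and Sele, which were not called. Lyve1 had a log2 fold change of 0.24 under limma voom with quality weights (adjusted p = 0.406). With each library left out, Prox1 ran from -0.13 (without KO piece 02) to 1.63 (without KO+NM1 piece 01), and Sele from -0.080 (without KO+NM1 piece 01) to 0.50 (without KO+NM1 piece 04), with -0.026 without KO piece 03. Under voom Prox1 was called higher (2.26, adjusted p = 0.00396). The causes were not tested. Medians of short lists moved when the genes tested changed: with at least 10 counts in every library to -1.14 for the co-receptors, -1.55 for the angiopoietin-like genes, 0.035 for the other lymphatic genes and -0.85 for the fibroblast growth factor list, which was at -2.07 with at least 1 count. The angiopoietin-like median was -1.49 without KO piece 03, and that of the inhibitors -1.33 without KO+NM1 piece 01. With the piece number as a replicate block there were 2 vessel genes higher and 31 lower, a median of -2.43, and 2437 and 2493 of all genes higher and lower. Vegfb, Pgf, Gja5 and Selp were the calls lost (edgeR adjusted p = 0.0681, 0.0532, 0.185 and 0.05003). Deviations of same-numbered pieces correlated at 0.0802, 0.102 and -0.0165, within the range of the other pairs (-0.120 to 0.109). These values show no pairing by number and cannot exclude one. The lowest level of any of the 41 genes in a piece was 0.570 CPM (Prox1 in KO+NM1 piece 02), above the 0.148 CPM set as the limit for a count of 0.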
